A study of Oryza sativa with 4 samples.

Results

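The genes described here are the WRKY and NAC transcription factors of rice, followed in lc1 mutant plants and in the wild type. A probe set was taken as a member when its single annotated gene had a symbol or synonym made of WRKY or NAC and a number, with or without an Os or O prefix. The rule found 20 of the 57381 probe sets, standing for 14 of the 17905 genes that a probe set names singly: 7 probe sets of 6 WRKY genes and 13 probe sets of 8 NAC genes. The rice genome carries many more genes of both families than the annotation names in this way, and those are not analysed here. RNA came from the lamina joint of the flag leaf, the collar between blade and sheath whose bending gives the leaf its angle, and was hybridised to Affymetrix Rice Genome arrays. There were 2 arrays of the lc1 mutant and 2 of the wild type, which the design text calls biological replicates without saying how many plants went into each. The labels give neither the kind of lc1 allele, nor the cultivar, nor the age of the plants. The gene LC1 encodes GH3.1, by earlier work an enzyme that conjugates auxin to amino acids.

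WRKY proteins bind DNA through a domain with a zinc finger, and their usual target is the W-box, an element found in the promoters of many defence genes and of WRKY genes themselves. Many WRKY genes respond quickly to pathogens, wounding, salicylate and jasmonate, and some members hold that response in check. NAC proteins share an N-terminal DNA-binding domain, and members are known as regulators of drought and salt responses, leaf senescence, secondary wall formation and organ boundaries.

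The Affymetrix Microarray Suite gives 1 signal for each probe set and array. The median signal as deposited was 16.1 and 13 on lc1 arrays 1 and 2, and 11.8 and 12.1 on wild-type arrays 1 and 2. Each array was therefore scaled to a common median, and all signals below are scaled ones. Without scaling, lc1 exceeded the wild type by 0.22 log2 units at the median of all tested probe sets. After scaling, the same median was -0.055. GH3.1 had signals of 451 and 423 in lc1, against 1.11 and 9.78 in the wild type, where both arrays lay at background (limma adjusted p = 0.0557). The background floor of an array, taken from 23 probe sets with no rice target, lay at 11.2 and 12.996 in lc1 and at 10.0 and 12.9 in the wild type. As a measure of RNA integrity, 1 rice Gapdh control gave 5' signals over 3' signals of 0.246 and 0.138 in lc1, and 0.164 and 0.236 in the wild type. The other Gapdh control had deposited, unscaled 5' signals of 0.3 to 6.6. LG1 and BOP1, both markers of the ligule region, were above the floor on all 4 arrays and had a summed signal of 639 and 699.8 in lc1, against 868 and 734 in the wild type. LG1 alone had 108 and 137 in lc1, against 147 and 261 in the wild type, a log2 difference of -0.69 without overlap (limma adjusted p = 0.644). In RNA of whole tissue, fewer cells of a type and less RNA per cell cannot be told apart.

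WRKY62 and WRKY76, neighbouring genes whose products are known to restrain defence, had about 4.28-fold and 5.48-fold higher signals in lc1 than in the wild type. The related WRKY71 was 1.77-fold higher and NAC5 was 1.93-fold higher on their brightest probe sets, while their other probe sets overlapped between the genotypes. WRKY24, WRKY51, WRKY9 and NAC3 lay within 1.17-fold of the wild type. Of the 14 genes 0 passed limma after adjustment over all 34355 tested probe sets, with adjusted p from 0.206 to 0.991, where 0.0262% of all probe sets passed, 0.0233% higher and 0.00291% lower. At an unadjusted limma p under 0.05 there were 4 of the 14, namely WRKY62, WRKY76, WRKY71 and NAC5, each of them higher in lc1. Over all tested genes that share was 7.75%, with 3.83% higher and 3.92% lower. In 5 of the 14 genes the lc1 signals lay wholly above the wild-type signals, against 17.6% of all tested genes, and in 2 wholly below, against 21.8%. The test was limma's moderated one on log2 signals, with 2 residual degrees of freedom. Differences are lc1 minus wild type on the log2 scale, from 2 arrays of each genotype. Their standard errors (SE) and 95% intervals are limma's moderated ones. These draw on the variance of other probe sets, through 6.65 prior degrees of freedom beside the 2 residual ones. They do not measure the spread of a gene's own arrays alone. Wild type 1 minus wild type 2 was -1.14 log2 units in WRKY62 and -1.42 in WRKY76.

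**Figure D1:**
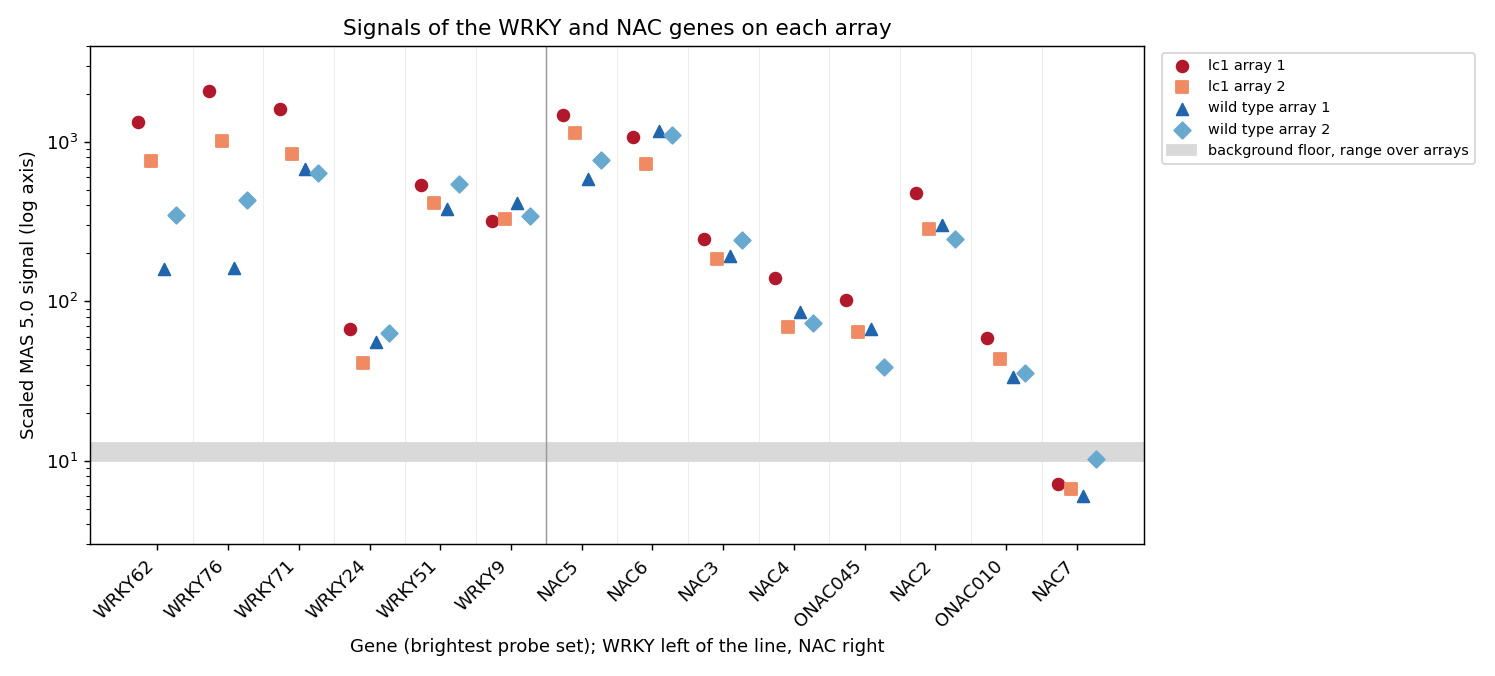
Scaled signal (log axis) of the brightest probe set of each of the 14 genes on the 2 lc1 and the 2 wild-type arrays, with the range of the background floor over the arrays in grey. The lc1 points of WRKY62 and WRKY76 stand clear of the wild-type points, those of most NAC genes overlap them, and NAC7 lies under the floor.

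WRKY62, WRKY71 and WRKY76 belong to group IIa of the WRKY family, a small group that includes repressors of defence such as WRKY62 and WRKY76. WRKY62 (LOC4347070), also named XB10 for its binding to the immune receptor XA21, had signals of 1336 and 756 in lc1, against 158 and 348 in the wild type. The lower lc1 array stood 2.17-fold above the higher wild-type array, although the wild-type arrays themselves differed 2.20-fold. The log2 difference was 2.10 ± 0.40 (SE; 95% interval 1.18 to 3.02; limma adjusted p = 0.206). WRKY76 (LOC4347069), which is known to lower resistance to blast fungus and to raise cold tolerance when overexpressed, had signals of 2082 and 1010.1 in lc1, against 162 and 434 in the wild type. Again the groups did not overlap, with the lower lc1 array 2.33-fold above the higher wild-type array. Its log2 difference was 2.45 ± 0.47 (SE; 95% interval 1.37 to 3.53; limma adjusted p = 0.211). Of the 16291 tested genes, 50 had a larger difference than WRKY76 and 96 a larger one than WRKY62. Both genes had the same order of arrays, with lc1 array 1 highest, then lc1 array 2, wild type 2 and wild type 1.

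The calls for this pair depended on single arrays. Without lc1 array 1 the log2 differences were 1.69 for WRKY62 (limma adjusted p = 0.0510) and 1.93 for WRKY76 (adjusted p = 0.0422). Without lc1 array 2 they were 2.51 (adjusted p = 0.00457) and 2.98 (adjusted p = 0.00330), and both passed. Without wild type 1 they were 1.53 and 1.74, with adjusted p of 0.632 and 0.601, and without wild type 2 they were 2.67 and 3.17, with adjusted p of 0.230 and 0.178. Of all 34355 probe sets, 0.768% passed without lc1 array 1 and 3.09% without lc1 array 2, against 0.0262% with all arrays, and 0.0146% and 0.0175% without wild type 1 and 2. Each of these fits leaves 1 genotype with a single array, which is assumed to vary like the arrays of the other genotype. Both genes remained higher in lc1 in all 4 fits.

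WRKY76 and WRKY62 follow each other on chromosome 9 with 0 genes between them in the gene table, whose assembly is used for names and order only. Of the 5 genes on each side of the pair, 10 in all, 6 were tested. In 0 of the 6 were the lc1 signals wholly above the wild-type signals, and in 4 they were wholly below, where 17.6% and 21.8% of all tested genes were. Their log2 differences ran from -3.20 to 0.11, with limma adjusted p from 0.412 to 0.994. The lowest value belonged to LOC4347073, annotated as a long non-coding RNA, at -3.20 ± 0.94, and the next lowest to LOC4347071, at -0.56 ± 0.27. Whether the probes of WRKY62 and WRKY76 can bind each other's transcript was not examined.

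WRKY71 (LOC4328512), known in aleurone as a repressor of gibberellin-induced amylase genes and in leaves as a defence gene, had signals of 1600.4 and 842 in lc1, against 674 and 638 in the wild type. All of the lc1 signals lay above those of the wild type, but lc1 array 2 only 1.25-fold above the higher wild-type array. The log2 difference was 0.82 ± 0.30 (SE; 95% interval 0.15 to 1.504; limma adjusted p = 0.543). It was 0.36 without lc1 array 1 (adjusted p = 0.869) and 1.29 without lc1 array 2 (adjusted p = 0.0169), the fit in which 3.09% of all probe sets passed. With WRKY62 and WRKY76, each of the 3 members of group IIa that the annotation names was higher in lc1 without overlap on its brightest probe set, by a median of 2.10 on the log2 scale, where 17.6% of all tested genes were higher without overlap. The dimmer probe set of WRKY71 overlapped.

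The other 3 WRKY genes stayed near the wild type. WRKY24 (LOC4327518), a repressor of gibberellin and abscisic acid responses in aleurone, had signals of 66.96 and 41.2 in lc1, against 55.3 and 63.5 in the wild type. WRKY51 (LOC4335388), which is known to act with WRKY71 on an amylase promoter, had 534 and 413 in lc1, against 382 and 542 in the wild type. In both genes the arrays of the genotypes interleaved, and the log2 differences were -0.17 (95% interval -0.98 to 0.64) and 0.047 (95% interval -0.57 to 0.66). WRKY9 (LOC4343736) was slightly lower in lc1 without overlap, with 317 and 329 in lc1, against 411 and 345 in the wild type. Its log2 difference of -0.22 had a 95% interval of -0.78 to 0.33, and it was 0.054 with the signals as deposited, where the median of all tested genes was 0.25. The intervals come from limma and still allow changes of more than 1.5-fold in at least 1 direction for each of the 3 genes.

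Among the NAC genes, 5 are known for stress responses, and their values lay on both sides of the wild type. NAC5 (LOC4349963), induced by abscisic acid and drought, had signals of 1467 and 1144 in lc1, against 583 and 770 in the wild type on its brightest probe set. The groups did not overlap, the lower lc1 array being 1.49-fold above the higher wild-type array, and the log2 difference was 0.95 ± 0.23 (SE; 95% interval 0.42 to 1.48; limma adjusted p = 0.336). Without lc1 array 2 it was 1.13 (adjusted p = 0.0454) and passed, as did 3.09% of all probe sets in that fit, whereas the adjusted p was 0.342 without lc1 array 1, 0.871 without wild type 1 and 0.529 without wild type 2. NAC6 (LOC4325006), also named SNAC2 and known for drought, salt and blast tolerance when overexpressed, lay the other way. It had 1080.5 and 731 in lc1, against 1172 and 1105 in the wild type. The groups were separate, but lc1 array 1 was close to the wild type, and the log2 difference was -0.36 ± 0.24 (limma adjusted p = 0.726).

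NAC3 (LOC4342753), a gene of the same stress-responsive subgroup, had 245 and 185 in lc1, against 192 and 241 in the wild type, so that the arrays interleaved. NAC4 (LOC4327485), known as a regulator of hypersensitive cell death, had 140.5 and 69.3 in lc1, against 86.2 and 72.7 in the wild type. Only lc1 array 1 stood out, and lc1 array 2 was the lowest of the 4. ONAC045 (LOC4349650), known for drought and salt tolerance when overexpressed, had 102 and 64.2 in lc1, against 67.3 and 38.5 in the wild type. Here lc1 array 2 lay below wild type 1, so the groups overlapped. The log2 differences were -0.015 ± 0.28 for NAC3, 0.32 ± 0.38 for NAC4 and 0.67 ± 0.39 for ONAC045, with limma adjusted p of 0.991, 0.845 and 0.697.

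The remaining NAC genes have other known roles or none given here. NAC2 (LOC4336052), also named TIL1 for its effect on tillering, had 480.1 and 285 in lc1, against 301 and 246 in the wild type. Its log2 difference was 0.44 ± 0.31 (limma adjusted p = 0.734), 0.82 on lc1 array 1 and 0.065 on lc1 array 2. ONAC010 (LOC4343630) had 59.1 and 43.3 in lc1, against 33.5 and 35.5 in the wild type. The lc1 signals of ONAC010 lay above those of the wild type, with a log2 difference of 0.55 ± 0.35 (limma adjusted p = 0.713). NAC7 (LOC4341201), which gave its name to a subgroup that in Arabidopsis holds regulators of vessel formation, had 7.19 and 6.68 in lc1, against 6.02 and 10.2 in the wild type. These signals were under the floor on all 4 arrays, so no difference could be measured for NAC7.

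Several probe sets measured WRKY71, NAC5, NAC6 and NAC7, and they did not always match. Of the 20 member probe sets, 18 passed the filter for the test, a mean signal of 5.96, which is below the floor of every array. On all arrays 4 lay at or under the floor, 2 of NAC6 and 2 of NAC7. The tested probe sets include the brighter one of NAC7 and a dim one of NAC6 among these. The shares over all tested genes rest on the same filter, so they also include genes under the floor. The dimmer WRKY71 probe set had 97.3 and 32.0 in lc1, against 35.2 and 33.5 in the wild type. It was higher on lc1 array 1 only, where the brighter one was higher on both lc1 arrays. The second NAC5 probe set had 252 and 117 in lc1, against 176 and 134 in the wild type, and the third 208 and 81.9 in lc1, against 152 and 122 in the wild type. On these probe sets NAC5 was above the wild type on lc1 array 1 and below it on lc1 array 2, with log2 differences of 0.16 ± 0.39 and -0.062 ± 0.43 (limma adjusted p = 0.931 and 0.980). The higher level of NAC5 on both lc1 arrays therefore rests on 1 of its 3 probe sets. WRKY62, WRKY76 and the other genes had a single probe set each.

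**Figure D2:**
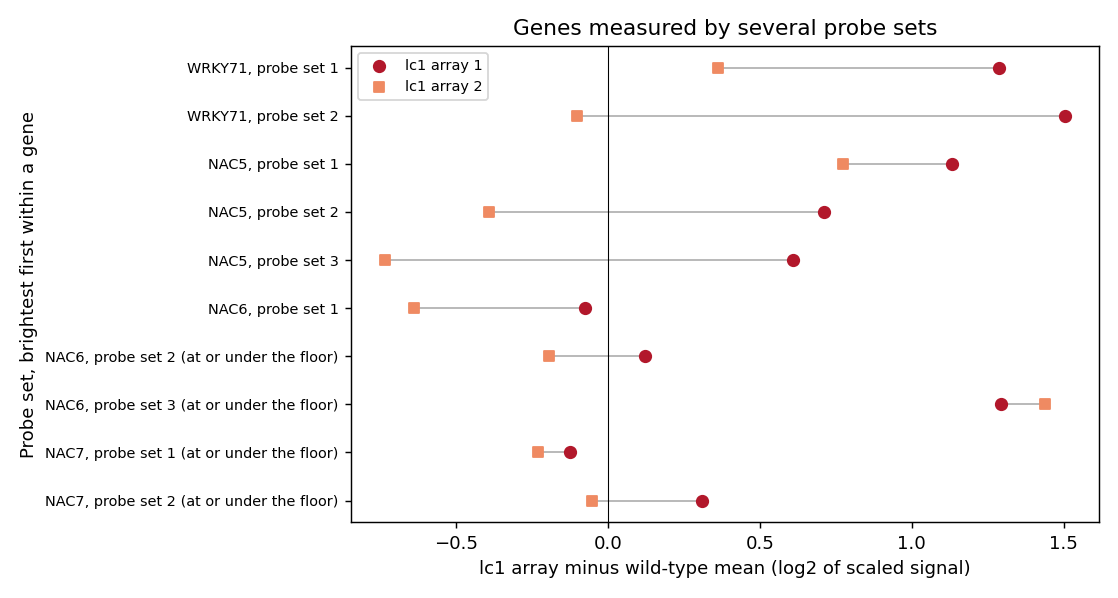
Log2 difference of each lc1 array from the wild-type mean for every probe set of the 4 genes that have several, ordered by brightness within a gene. For NAC5 the brightest probe set is higher on both lc1 arrays and the other 2 only on lc1 array 1.

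The families were compared by their medians over genes, without a test, because the members were chosen with earlier results known. The 6 WRKY genes had a median log2 difference of 0.44, with 4 above 0 and 2 below, and the 8 NAC genes one of 0.38, with 5 above and 3 below. Over all 16291 tested genes the median was -0.028 and 46.7% lay above 0. The SD between replicate arrays of a family's median log2 signal was 0.44 for WRKY and 0.36 for NAC. That SD describes signal levels and does not measure the error of a difference between the families. The WRKY median minus the NAC median was 0.056. Its sign depended on the setting, being -0.047 with quantile normalization and -0.0060 without NAC7, and between -0.090 and 0.31 with 1 array left out. Without NAC7, which was under the floor, the NAC median was 0.44, with 5 genes above 0 and 2 below. The spread within the families differed more than their medians did. WRKY differences ran from -0.22 to 2.45 and NAC differences from -0.36 to 0.95.

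Each lc1 array was also set alone against the mean of both wild-type arrays. On lc1 array 1 the median was 0.76 for the WRKY genes and 0.80 for the NAC genes, and on lc1 array 2 it was 0.11 and -0.064. The corresponding medians over all tested genes were -0.053 and -0.00055, so both families stood above the median gene on lc1 array 1 and close to it on lc1 array 2. Without NAC7 the NAC medians were 0.82 and 0.065. Above the wild-type mean were 11 of the 14 genes on lc1 array 1 and 7 on lc1 array 2, against 45.4% and 50% of all tested genes. At least 2-fold above the wild type on lc1 array 1 were 5 of the 14 genes (WRKY62, WRKY76, WRKY71, NAC5 and ONAC045), against 6.32% of all tested genes. On lc1 array 2 there were 2 of 14, WRKY62 and WRKY76, against 2.29%. The same 2 genes were the ones past 2-fold on both lc1 arrays, which 1.5% of all tested genes were, and the ones whose lower lc1 array stood at least 2-fold above the higher wild-type array, which 0.694% were. No member was 2-fold lower on either array, where 4.89% of all tested genes were on lc1 array 1 and 2.96% on lc1 array 2.

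The signal was higher on lc1 array 1 than on lc1 array 2 in 13 of the 14 genes, WRKY9 being the exception, and in 12 of 13 without NAC7, against 45.5% of all tested genes. The median gap between the lc1 arrays was 0.76 for WRKY genes and 0.51 for NAC genes, against -0.049 for all tested genes. In NAC2, NAC4, WRKY24, WRKY51 and NAC3, lc1 array 1 lay above the wild-type mean and lc1 array 2 near or below it. For these genes, the sign or size of the difference between the genotypes depended on which lc1 array was used.

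**Figure D3:**
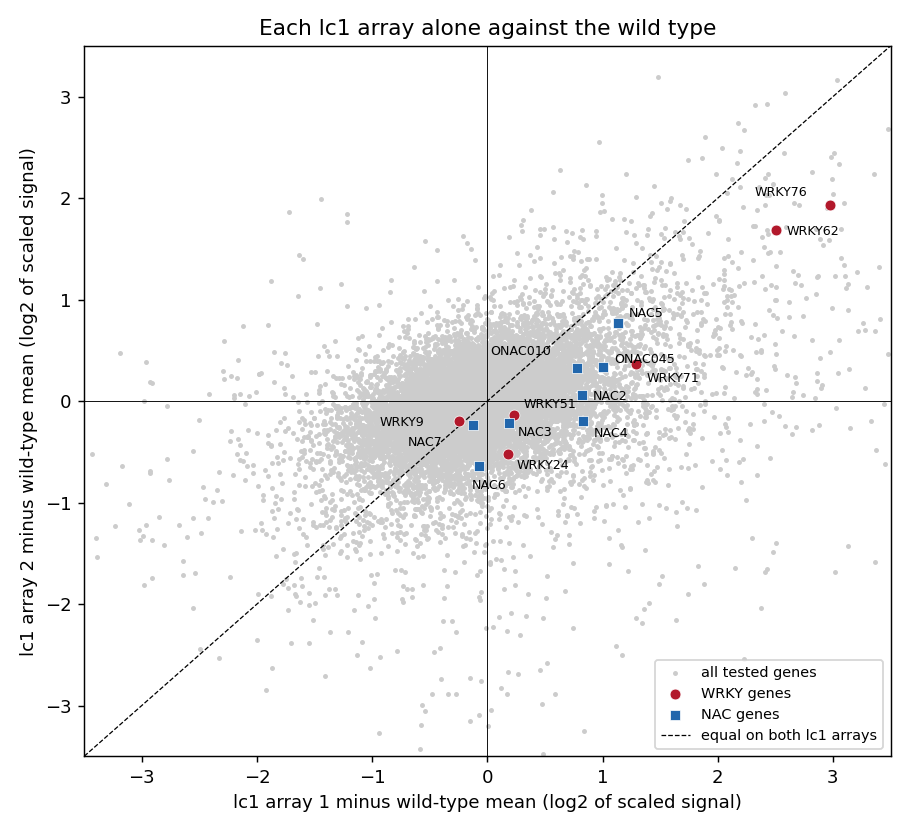
Log2 difference from the wild-type mean on lc1 array 1 (x axis) and lc1 array 2 (y axis) for all 16291 tested genes in grey, with WRKY genes as circles and NAC genes as squares (97 genes lie outside the axes). WRKY62 and WRKY76 are high on both arrays, and 13 of the 14 members lie below the dashed line of equal values.

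Genes that act before or after WRKY and NAC factors were taken from lists matched on symbols and synonyms, and 0 of their members passed limma after adjustment over all probe sets. Among the 16 MAP kinase cascade genes, which carry signals to WRKY proteins, the median log2 difference was 0.029 with 9 above 0, and 0 genes had an unadjusted p under 0.05. The list of chitin perception, the receptors that detect fungal walls, matched 4 genes, with a median of -0.33. All 4 were below 0, where 8682 of all 16291 tested genes were. The values were -0.027 for CEBIP, -0.14 for CERK1, -0.76 for LYP4 and -0.51 for RLK10, which matched only through the alias CERK1. The 4 salicylate genes had a median of 0.24. PAL06, a phenylalanine ammonia-lyase, gave 2.11 ± 0.59 (limma adjusted p = 0.378), with 3.11 on lc1 array 1 and 1.11 on lc1 array 2. NH1, a central regulator of the salicylate response, gave -0.069 ± 0.25, NH2 gave 0.071 and NH3 gave 0.41. PBZ1, a pathogenesis-related gene that WRKY factors are known to act on, had signals of 5868 and 4280 in lc1, against 5141 and 5387 in the wild type, which overlap. The 4 chlorophyll breakdown genes, a process that NAC factors promote in senescence, had a median of 0.38, with 3 above 0. The 4 tested secondary wall genes were all below 0, where 8682 of all 16291 tested genes were, with a median of -1.19. CESA4, CESA7 and CESA9, the cellulose synthases of the secondary wall, had differences of -1.12, -1.27 and -1.25 (limma adjusted p = 0.359, 0.411 and 0.517). In CESA4, CESA7 and CESA9 the genotypes did not overlap, where 21.8% of all tested genes were lower without overlap. They overlapped in the other tested gene of the list, BC1 (LOC4333114), at -0.49 (limma adjusted p = 0.760). The list of VQ proteins, partners of WRKY factors, matched 0 genes.

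The jasmonate and wounding list was high on the same array as the members. Of its 21 tested genes, 16 lay above 0, against 46.7% of all tested genes, and 7 were higher at an unadjusted limma p under 0.05, against 3.83%. Its median was 0.73 on lc1 array 1 and 0.12 on lc1 array 2. The summed signal of all 23 measured genes of the list was 24585 and 18047 in lc1, against 16366 and 16657 in the wild type, and 2 of the 23 were under the floor on all arrays. The tested genes of the panicle list had a median of -1.49 on lc1 array 1 and -0.22 on lc1 array 2. On lc1 array 2, MADS1 lay above the wild-type mean, by 0.27. With both lc1 arrays, all 6 tested genes of this list lay below 0, 4 of them without overlap, where 21.8% of all tested genes were. At an unadjusted limma p under 0.05 there were 3 lower genes of the list (MADS34, MADS15 and MADS14), against 3.92%. The summed signal of all 9 was 2062 and 3577 in lc1, against 5283 and 5029 in the wild type. Most of this signal came from MADS15 and MADS14. MADS15 had 652 and 1312 in lc1, against 2457 and 2303 in the wild type. MADS14 had 849 and 1552 in lc1, against 1773 and 1936 in the wild type. Of the 9 genes, 3 (MADS6, MADS7 and MADS13) were under the floor on all arrays, and MADS8 was above it on 1 array only. Whether MADS14, MADS15 and MADS34 mark panicle tissue in these samples was not tested. The 3 green blade markers summed to 11744 and 13928 in lc1, against 12949 and 14068 in the wild type. The 8 anther and tapetum markers summed to 3223 and 2736 in lc1, against 2856 and 2633 in the wild type, but most of this signal came from a cystatin matched only through a shared alias. Without it the other 7 summed to 129 and 209 in lc1, against 192 and 149 in the wild type, with 3 of them under the floor on all arrays. No marker of these lists was at 0. The part of jasmonate response, of tissue composition and of RNA quality in the WRKY and NAC values was not tested.

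**Figure D4:**
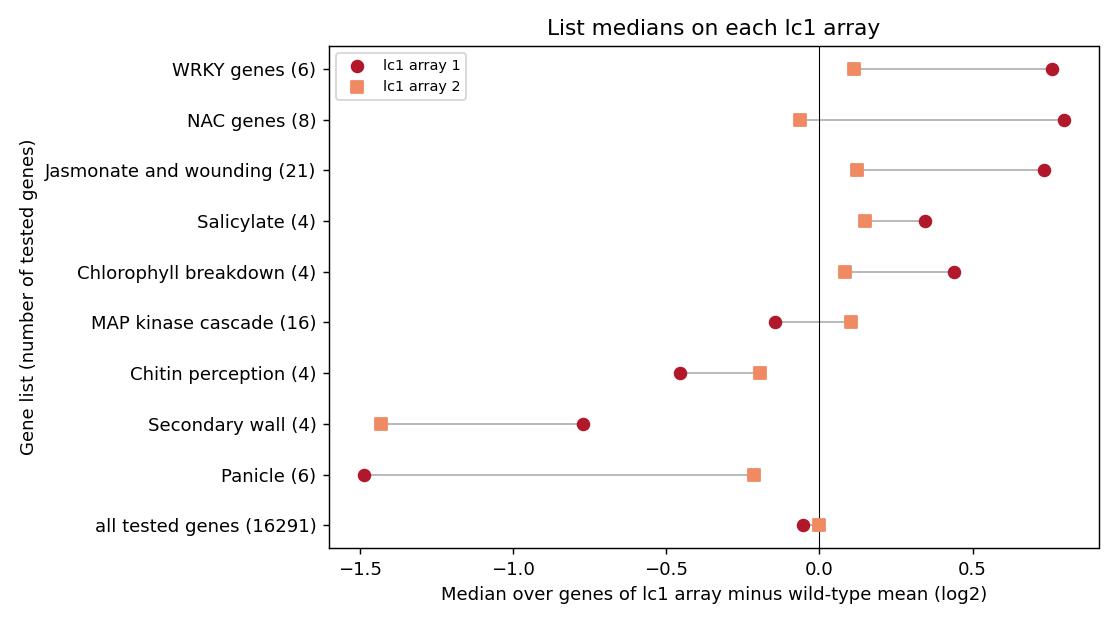
Median over the tested genes of each list of the log2 difference from the wild-type mean, for lc1 array 1 and lc1 array 2, with the number of genes in brackets. The WRKY, NAC and jasmonate lists have medians between 0.73 and 0.80 on lc1 array 1 and between -0.064 and 0.12 on lc1 array 2.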

How the data were processed

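The 4 arrays were grouped by the genotype label. The deposited table gives the authors' intensity for each probe set and array, the signal of the Affymetrix Microarray Suite 5.0, per the series' design text. The submitters' processing notes name R 1.8.0. Detection calls and probe-level data were not used here. Of 57381 probe sets, 123 controls were left out. Signals were scaled to a common median per array, the 18 zeros were set to 0.05, and log2 was taken. The test covered the 34355 probe sets whose mean log2 signal reached 2.58, the 40th percentile, which equals 5.96 in signal. It used limma 3.58.1 in R 4.3.3 (lmFit, eBayes with intensity trend, 2-sided, Benjamini-Hochberg, threshold 0.05). The floor was the 95th percentile of 23 Tag and TrpnX controls. The test was checked on simulated data.

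Names came from the platform annotation and the gene table of assembly ASM3414082v1. All 22436 probe sets with 1 gene matched it. Where several probe sets name a gene, the brightest stands for it. The rule for named genes took the 6 higher and 6 lower genes of each family with the smallest p and all genes of listed roles, which covers all 14. Members and lists were chosen with earlier results of these data known. The number of arrays limits the precision. Alternatives were the scaling, the filter, an offset, the variance prior, the probe sets, a replicate block, genes under the floor and each array left out.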

Additional observations from a re-analysis of the deposited data

How the results depend on the processing

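The sample titles number the arrays 1 and 2 in both genotypes, but nothing says that a number marks a shared batch, and the deviations of lc1 array 1 and wild type 1 correlated at -0.036. With the number as a replicate block, limma kept 1 residual degree of freedom and gave every probe set the variance of the trend. It then called 634 probe sets, 2 WRKY genes (WRKY62 and WRKY76) and 1 NAC gene (NAC5, adjusted p = 0.0386), against 9, 0 and 0. The count over all probe sets was 1 with the signals as deposited, 4 with quantile normalization, 2 without the filter, 16 with a filter at the median, 31 with log2(signal + 16) and 0 with a common variance prior. Leaving out 1 array each gave 5 to 1061 probe sets (264 without lc1 array 1, 1061 without lc1 array 2), 0 to 3 WRKY genes and 0 to 1 NAC genes. With the signals as deposited, 4 NAC genes were higher without overlap and 0 of either family lower, while 39.2% of all tested genes were higher and 8% lower. Over the left-out arrays, 2 to 6 NAC genes were higher and 1 to 3 lower without overlap, and 1 to 2 WRKY genes were lower. Of all tested genes, 28.3% to 34.4% were higher without overlap in these fits and 34.1% to 42.8% lower. The NAC median ran from -0.064 to 0.80 and the WRKY median from 0.11 to 0.76. In the 9 other planned settings the medians stayed above 0. The WRKY median minus the NAC median turned to -0.047 with quantile normalization, and to -0.0060 with a filter at the median, without _x_at and _s_at probe sets, or without NAC7. It ran from -0.090 to 0.31 over the left-out arrays. Counting each probe set on its own gave 0.54, from medians of 0.70 for WRKY and 0.16 for NAC. The last 2 choices, leaving out NAC7 and counting probe sets, were made after seeing the data.

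Direction was kept by 8 of the 14 genes in every setting run. It turned with the signals as deposited for NAC3 (0.26), NAC7 (0.10), WRKY24 (0.10) and WRKY9 (0.054), and for NAC3 with quantile normalization (0.068). With 1 array left out, NAC3 ran from -0.22 to 0.19, NAC4 from -0.19 to 0.83, NAC7 from -0.56 to 0.20, WRKY24 from -0.52 to 0.18 and WRKY51 from -0.21 to 0.30. The cause was not tested. Signals near the floor limit NAC7.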
